A study of Mus musculus with 8 samples.

Results

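The 41 genes described here belong to the cell cycle and DNA replication machinery of the mouse. They were found by matching gene symbols and make up 41 of the 23504 gene symbols in the deposited table. For the contrast between S phase and mitosis they were divided into 13 genes of G1 and S phase (the cyclins Ccnd1, Ccne1 and Ccne2, the helicase subunits Mcm2 to Mcm7, Pcna, Rrm1, Rrm2 and Tyms) and 28 genes of mitosis. All 13 genes of G1 and S phase passed the filter on low counts, and 26 of the 28 mitosis genes did. Bub1 and Ttk did not pass it, so 39 of the 41 were tested.

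RNA of the outer renal cortex, dissected by hand from decapsulated kidneys, was sequenced from wild type C57Bl6/J mice. The 4 libraries A, B, F and G came from mice given a high fat diet, and the 4 libraries I, J, L and M from mice given a control diet. Both diets began at 6 weeks of age and lasted 9 weeks, so that the mice were 15 weeks old, and the stated purpose was to find genes expressed differently between the diets. The labels give neither the composition of the diets nor that each library is a separate mouse, so a p-value here speaks only of the spread among libraries, which may be technical.

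A cell that divides first passes from G1 into S phase, when D and E cyclins release the E2F factors, the MCM helicase unwinds DNA, and the sliding clamp Pcna and the enzymes of deoxynucleotide synthesis serve the polymerases. It then enters mitosis, when cyclin B and Cdk1 drive chromosome condensation, spindle assembly, separation of the chromatids and cytokinesis. Transcripts of mitosis genes accumulate late in the cycle. In their promoters, CHR elements and CCAAT boxes are known for this late timing, as E2F motifs are for genes of S phase. Most tubule cells of the adult kidney are quiescent, and the cortex is a mixture of cell types. In such bulk tissue, a change in the number of cells of a kind and a change in RNA per cell cannot be told apart.

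Promoter sequences from RefSeq (GRCm38.p6) were matched for 24 of the 28 mitosis genes (26 promoters) and for 10 of the 13 genes of G1 and S phase (11 promoters). The 250 bases before the annotated start are shown for 3 mitosis genes that were higher on the high fat diet and for Mcm6, the helicase subunit that was lower. All 4 genes lie on the minus strand, and the sequences read 5′ to 3′ on that strand. They occupy chr7:135716380-135716629 (Mki67), chr11:99024190-99024439 (Top2a), chr10:69352913-69353162 (Cdk1) and chr1:128359706-128359955 (Mcm6). Capitals mark the CHR element TTTGAA, the CCAAT box CCAAT and the E2F motifs TTTCCCGC, TTTGGCGC, TTTCGCGC and TTTGCCGC, each on either strand; where matches overlap, 1 longer run of capitals covers them.
Mki67: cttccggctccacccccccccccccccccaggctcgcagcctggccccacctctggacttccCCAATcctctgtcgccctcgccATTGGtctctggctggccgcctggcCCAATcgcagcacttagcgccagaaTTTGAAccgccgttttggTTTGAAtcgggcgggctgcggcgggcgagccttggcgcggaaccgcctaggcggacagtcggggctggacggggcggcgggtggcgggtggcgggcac
Top2a: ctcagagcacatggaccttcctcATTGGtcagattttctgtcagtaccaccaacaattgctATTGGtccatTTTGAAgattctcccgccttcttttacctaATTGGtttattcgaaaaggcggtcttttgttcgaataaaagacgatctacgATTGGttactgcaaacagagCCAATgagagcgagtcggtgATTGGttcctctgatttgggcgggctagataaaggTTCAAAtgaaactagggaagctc
Cdk1: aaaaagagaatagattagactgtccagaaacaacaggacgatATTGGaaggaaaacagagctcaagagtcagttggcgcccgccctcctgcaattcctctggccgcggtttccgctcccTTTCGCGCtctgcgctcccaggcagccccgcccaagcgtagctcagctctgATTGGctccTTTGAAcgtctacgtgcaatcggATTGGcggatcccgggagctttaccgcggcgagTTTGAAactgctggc
Mcm6: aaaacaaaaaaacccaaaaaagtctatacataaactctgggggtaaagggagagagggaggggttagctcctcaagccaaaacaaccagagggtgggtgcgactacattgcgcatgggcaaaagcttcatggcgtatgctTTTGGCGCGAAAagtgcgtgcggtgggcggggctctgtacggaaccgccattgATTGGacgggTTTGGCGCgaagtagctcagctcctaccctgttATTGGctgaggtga

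A CHR element was found in 46.2% of the promoters of mitosis genes (12 of 26), in 9.09% of those of G1 and S phase (1 of 11) and in 16.0% of all 32851 RefSeq promoters of this length. The CCAAT box was found in 84.6% of mitosis promoters, 81.8% of G1 and S phase promoters and 33.8% of all promoters. An E2F motif was found in 3.85% of mitosis promoters, 27.3% of G1 and S phase promoters and 1.86% of all promoters. The E2F matches in G1 and S phase lay in promoters of Mcm5, Mcm6 and Mcm7, and the single match among mitosis genes lay in that of Cdk1. The promoter of Mki67 held 2 CHR elements and 3 CCAAT boxes, and that of Top2a held 2 CHR elements and 6 CCAAT boxes. That of Mcm6 held 3 E2F matches, of which 2 overlap, and no CHR element. Of the 14 mitosis genes that were higher on the high fat diet, 7 had a CHR element in this window and 7 (Ccnb1, Cenpe, Cenpf, Nusap1, Anln, Aspm and Cdca8) had none. Ect2, Espl1, Ncapg and Smc2, which were not called, also had one, so that 11 of the 24 matched mitosis genes did. The 3 mitosis promoters shown are the ones among these genes with 2 CHR elements. These matches describe the letters of the window and no measured binding.

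**Figure D1:**
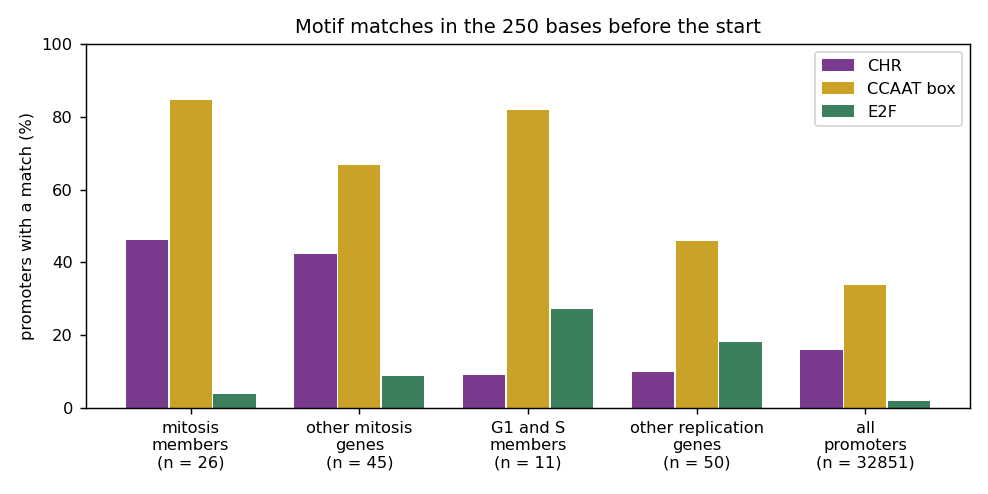
Share of RefSeq promoters (vertical axis, percent) with at least 1 match to the CHR element, the CCAAT box or an E2F motif in the 250 bases before the start, by gene list. CHR elements were found in 46.2% of the promoters of the mitosis genes and in 9.09% of those of G1 and S phase genes; E2F motifs were found in 3.85% and 27.3% of the same promoters.

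The libraries held 23503593 to 26291029 expected counts on the high fat diet and 26572175 to 30781585 on the control diet. Rn45s, the precursor of ribosomal RNA, took 4.82% to 13.3% of counts on the high fat diet and 1.23% to 50.3% on the control diet, the highest share being in control J. It was removed before libraries were scaled, which left 13993652 counts in control J and 21793784 to 30403685 in the other 7. The mitosis genes together had 1530 to 2359 counts in a high fat library, and 498 counts in control J against 1225 to 1691 in the other 3 control libraries. Levels below are CPM (counts scaled to 1e+06 per library) after this removal and TMM scaling, and comparisons between genes use the deposited FPKM values, averaged over the 7 libraries other than control J, whose FPKM values are lowered by its share of Rn45s. Proximal tubule markers were abundant, with summed levels of 26279 to 27121 CPM in high fat libraries and 25487 to 27596 CPM in control libraries.

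Mitosis genes were higher on the high fat diet as a group, while most genes of G1 and S phase did not pass the test. Of the 26 tested mitosis genes, 14 rose, 0 fell and 12 did not pass an adjusted p of 0.05 (edgeR quasi-likelihood test, Benjamini-Hochberg over all genes). Across all 14711 tested genes, 4.86% rose, 5.13% fell and 9.99% were called in either direction. The median log2 fold change of the 26 genes was 0.81, against -0.00 for all tested genes, with a range of -0.00 to 1.56. Of the 13 genes of G1 and S phase, Ccnd1 rose, Mcm6 fell and 11 did not pass, with a median log2 fold change of 0.10 and a range of -0.46 to 0.51. All 4 high fat values lay above all 4 control values for 17 of the 28 mitosis genes and for 2 of the 13 genes of G1 and S phase, against 8.29% of all tested genes. All 4 lay below for 0 mitosis genes and for Mcm6, against 9.18% of all tested genes. Leaving out high fat F, the highest library for mitosis genes, together with control J, the lowest, left 5 of the 26 mitosis genes called, when 2.80% of all genes were called.

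**Figure D2:**
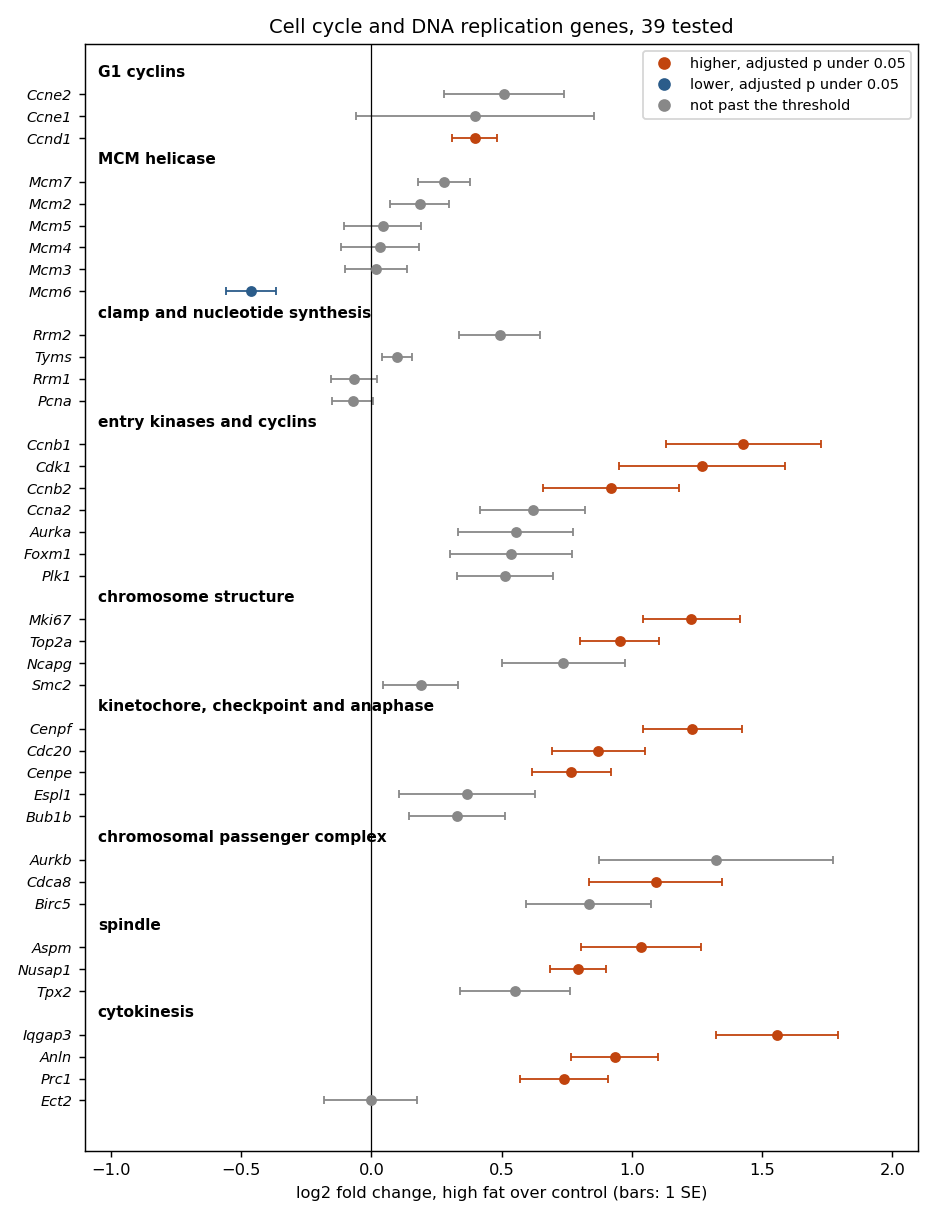
Log2 fold change, high fat over control, for each of the 39 tested genes (horizontal axis; bars are 1 SE from the edgeR fit), ordered by role down the page. Of the mitosis genes 14 lie to the right of 0 past the threshold, while Ccnd1 and Mcm6 are the genes of G1 and S phase past it.

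Among the G1 cyclins, Ccnd1 (cyclin D1, which with Cdk4 and Cdk6 starts the phosphorylation of the retinoblastoma protein) had by far the highest level of the 41 genes, 65.4 FPKM. Its level was 278, 246, 341 and 290 CPM in high fat libraries A, B, F and G, against 208, 222, 222 and 226 CPM in control libraries I, J, L and M. All 4 high fat values lay above all 4 control values, and the spread was wider on the high fat diet. The log2 fold change was 0.40 ± 0.09 (SE, adjusted p = 0.0176, edgeR, n = 4 per diet). Without control I the adjusted p was 0.0536. The gene lies on chromosome 7 from 144929931 to 144939925 (GRCm38, GENCODE M21). Its exons share at least 818 of 4709 bases with Oraov1 on the opposite strand, whose log2 fold change was -0.02 ± 0.08. The E cyclins, which activate Cdk2 at the entry into S phase, were at 0.189 FPKM (Ccne1) and 0.433 FPKM (Ccne2). Ccne1 rested on 5 to 11 counts in a high fat library and 0 to 12 in a control library. Ccne2 had a log2 fold change of 0.51 ± 0.23 and did not pass the test (adjusted p = 0.180, edgeR).

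The 6 MCM subunits, which assemble into the ring of the replicative helicase, did not move together. Mcm6 fell, with 19.2, 15.7, 17.6 and 18.6 CPM in high fat libraries A, B, F and G, against 24.3, 22.8, 28.6 and 21.9 CPM in control libraries I, J, L and M. Every high fat value was below every control value. The log2 fold change was -0.46 ± 0.10 (SE, adjusted p = 0.0145, edgeR, n = 4 per diet), and the adjusted p was at most 0.0403 when any 1 library was left out. Without control J and high fat F together, or control J and high fat G together, Mcm6 was not called, with adjusted p-values of 0.0625 and 0.0509 (edgeR). Mcm6 lies on chromosome 1 from 128331590 to 128359664.

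Mcm7 went the other way in value without passing the test. It had 18.9, 22.2, 19.7 and 15.7 CPM in high fat libraries and 16.9, 15.6, 14.6 and 15.9 CPM in control libraries, a log2 fold change of 0.28 ± 0.10 (adjusted p = 0.102, edgeR). The groups overlapped only through high fat G, and without high fat G the gene passed the threshold. Its exons overlap those of Ap4m1 on the opposite strand, which rose by a log2 fold change of 0.47 ± 0.12 (adjusted p = 0.0370, edgeR), and the counting is not stated to use strand. The log2 fold changes of Mcm2, Mcm3, Mcm4 and Mcm5 were 0.19 ± 0.11, 0.02 ± 0.12, 0.03 ± 0.15 and 0.04 ± 0.15, and the diets overlapped for all 4. The summed level of the 6 subunits was 69.0 ± 5.30 CPM on the high fat diet and 70.0 ± 6.10 CPM on the control diet (SD, n = 4 each).

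Because the share of 1 subunit in the counts of all 6 does not depend on how libraries are scaled, it was also compared. Mcm6 made up 28.7%, 20.4%, 25.8% and 28.8% of MCM counts in high fat libraries A, B, F and G, against 33.1%, 34.7%, 37.3% and 34.2% in control libraries I, J, L and M. The shares did not overlap between the diets. Mcm7 made up 24.3% to 29.0% of MCM counts in high fat libraries and 19.0% to 24.8% in control libraries, which overlapped. Per length the subunits differed in level, from 7.12 FPKM for Mcm7 and 7.0 FPKM for Mcm6 to 1.34 FPKM for Mcm5.

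**Figure D3:**
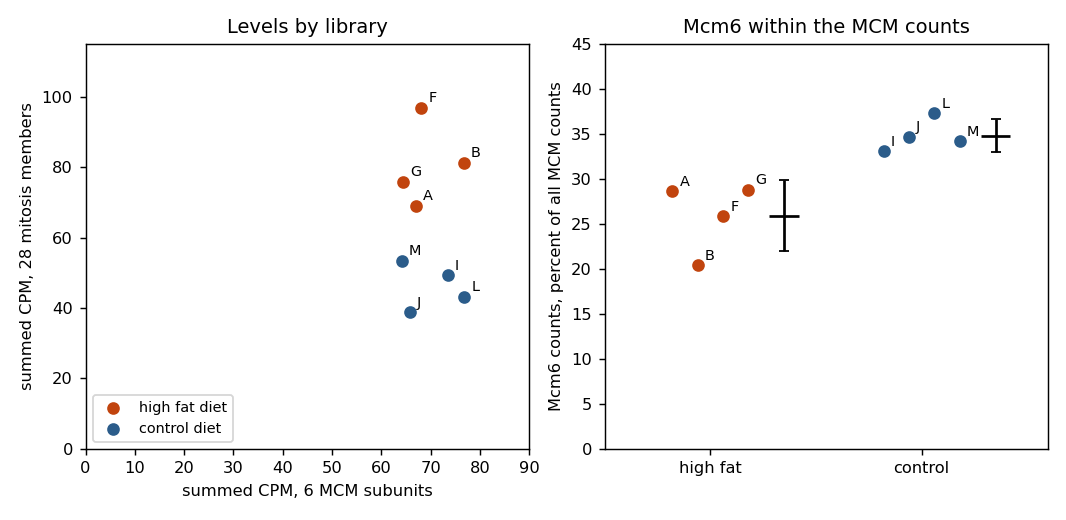
Left, summed CPM of the 28 mitosis genes (vertical) against summed CPM of the 6 MCM subunits (horizontal), 1 point per library; right, Mcm6 counts as a percentage of all MCM counts, 1 point per library with the mean and SD of 4 libraries beside them. The mitosis sums of high fat libraries (69.1 to 96.9 CPM) lie above those of control libraries (38.8 to 53.4 CPM) while the MCM sums overlap, and Mcm6 shares lie between 20.4% and 28.8% on the high fat diet and between 33.1% and 37.3% on the control diet.

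The sliding clamp Pcna, which holds DNA polymerases on the template and also serves repair, had 25.8 FPKM, second among the 41 genes. Its level was 30.8, 37.3, 30.9 and 30.1 CPM in high fat libraries and 34.6, 35.2, 34.8 and 31.3 CPM in control libraries, and the groups overlapped. The log2 fold change was -0.07 ± 0.08 (adjusted p = 0.591, edgeR). Tyms, which makes thymidylate, followed at 22.2 FPKM, with a log2 fold change of 0.10 ± 0.06 (adjusted p = 0.292, edgeR). Its level was 89.5 ± 1.67 CPM on the high fat diet and 83.5 ± 5.55 CPM on the control diet (SD, n = 4 each).

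The subunits of ribonucleotide reductase, the enzyme that makes deoxynucleotides, differed from each other in value. Rrm2, the small subunit known to be limited to S phase, had 3.11, 2.75, 2.88 and 3.25 CPM in high fat libraries and 2.27, 2.65, 2.22 and 1.61 CPM in control libraries. All 4 high fat values lay above the control values, but the log2 fold change of 0.49 ± 0.16 did not pass the test (adjusted p = 0.0689, edgeR). Rrm1, the large subunit, had 15.1 ± 0.788 CPM on the high fat diet and 15.9 ± 1.70 CPM on the control diet (SD, n = 4 each), with a log2 fold change of -0.07 ± 0.09.

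Mki67, which encodes the Ki-67 protein that coats mitotic chromosomes and is the common marker of dividing cells, was among the clearest of the mitosis genes. Its level was 12.1, 12.96, 18.4 and 13.9 CPM in high fat libraries A, B, F and G, against 5.79, 4.28, 5.47 and 8.34 CPM in control libraries I, J, L and M. The groups were well apart, with F the highest and J the lowest library, on 55 counts in J. The log2 fold change was 1.23 ± 0.19 (SE, adjusted p = 0.0040, edgeR, n = 4 per diet). Mki67 remained called whichever library was left out, with log2 fold changes of 1.08 to 1.44. It lies on chromosome 7 from 135689784 to 135716361.

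Top2a, the topoisomerase that untangles replicated chromosomes, had 5.10, 6.90, 7.48 and 6.09 CPM in high fat libraries and 3.28, 2.41, 3.60 and 3.60 CPM in control libraries. The groups did not overlap, and the log2 fold change was 0.95 ± 0.15 (adjusted p = 0.0049, edgeR). The condensin genes, whose products compact chromosomes, did not pass. Ncapg, which passed when high fat A was left out, had a log2 fold change of 0.74 ± 0.24 (adjusted p = 0.0720, edgeR) and Smc2 one of 0.19 ± 0.14 (adjusted p = 0.428, edgeR). Smc2 ranged from 6.09 to 8.21 CPM on the high fat diet and from 4.98 to 7.66 CPM on the control diet.

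**Figure D4:**
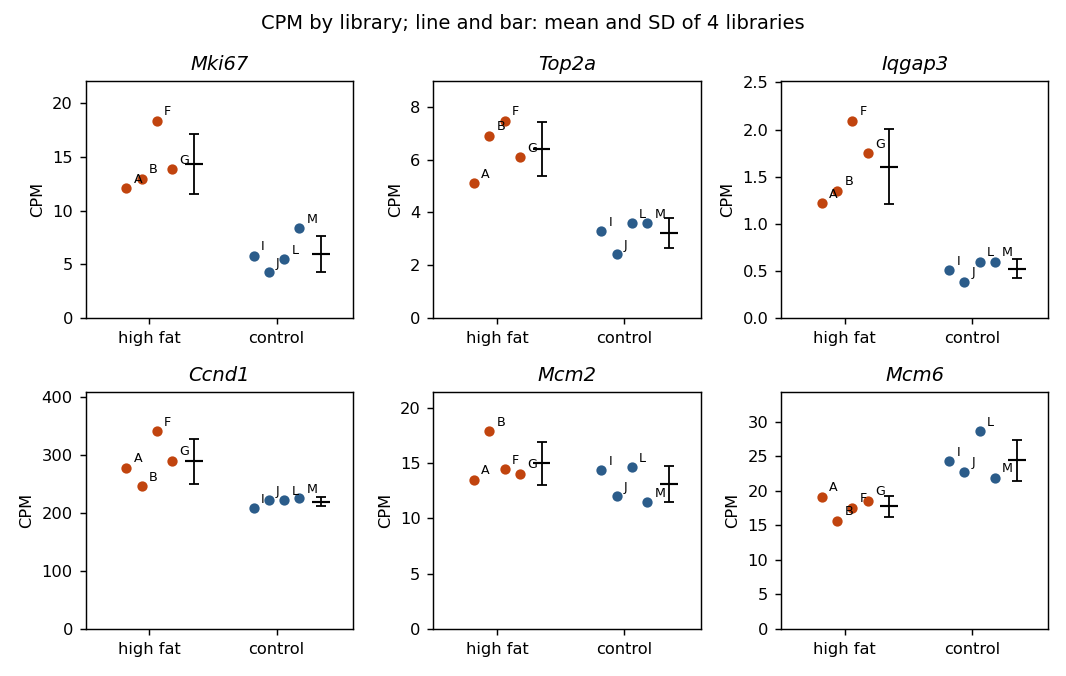
CPM of 6 genes (vertical axes, each from 0), 1 point per library labelled with its letter, with the mean and SD of 4 libraries to the right of each group. The mitosis genes Mki67, Top2a and Iqgap3 and the G1 cyclin Ccnd1 are higher in every high fat library than in any control library, Mcm2 overlaps between the diets and Mcm6 is lower in every high fat library.

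Genes that bring cells into mitosis rose in part. Ccnb1 (cyclin B1) had 1.17, 2.28, 2.55 and 1.79 CPM in high fat libraries A, B, F and G, against 0.391, 0.934, 0.706 and 0.916 CPM in control libraries I, J, L and M. Its partner kinase Cdk1 had 1.49, 2.33, 2.18 and 1.26 CPM in high fat libraries and 0.978, 0.156, 0.741 and 0.852 CPM in control libraries. Neither gene overlapped between the diets, and B and F were the highest libraries for both. The log2 fold change was 1.43 ± 0.30 for Ccnb1 (adjusted p = 0.0151, edgeR) and 1.27 ± 0.32 for Cdk1 (adjusted p = 0.0319, edgeR). Cdk1 was not called when high fat B, high fat F or control L was left out, with an adjusted p of up to 0.0870. Ccnb2 was the called gene nearest the threshold (log2 fold change 0.92 ± 0.26, adjusted p = 0.0485, edgeR), and it was lost when any library other than high fat A was left out, with an adjusted p of up to 0.138.

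The other genes of mitotic entry did not pass the test. Ccna2 (cyclin A2, active in S phase and G2) had 3.17, 3.20, 4.49 and 2.71 CPM in high fat libraries and 3.01, 1.88, 1.86 and 2.01 CPM in control libraries, so that control I lay within the high fat range. Its log2 fold change was 0.62 ± 0.20 (adjusted p = 0.0747, edgeR), and it passed when control I was left out. Its exons overlap those of Exosc9 on the opposite strand, whose log2 fold change was -0.09 ± 0.08. The polo-like kinase Plk1, the spindle pole kinase Aurka and Foxm1, a transcription factor of late cell cycle genes, had log2 fold changes of 0.51 ± 0.18, 0.55 ± 0.22 and 0.54 ± 0.23. The adjusted p-values of these 3 genes ran from 0.0998 to 0.164 (edgeR), and Plk1 and Aurka did not overlap between the diets.

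Of the genes of the kinetochore, the checkpoint and anaphase, 3 of 5 tested rose. Cenpf, a large protein of the outer kinetochore, had 3.30, 5.22, 5.36 and 4.14 CPM in high fat libraries and 1.97, 1.49, 1.65 and 2.36 CPM in control libraries (log2 fold change 1.23 ± 0.19, adjusted p = 0.0044, edgeR). Cenpe, the kinesin that moves chromosomes to the spindle equator, rose by a log2 fold change of 0.77 ± 0.15 (adjusted p = 0.0124, edgeR). Cdc20, which activates the anaphase-promoting complex, had 2.12, 2.61, 2.88 and 2.15 CPM in high fat libraries and 1.25, 1.24, 1.09 and 1.67 CPM in control libraries, a log2 fold change of 0.87 ± 0.18 (adjusted p = 0.0144, edgeR). None of these 3 genes overlapped between the diets. The checkpoint gene Bub1b and the separase gene Espl1 overlapped and did not pass, with log2 fold changes of 0.33 ± 0.18 and 0.37 ± 0.26. The checkpoint kinase genes Bub1 and Ttk were not tested. Bub1 had 14, 7, 16 and 14 counts in high fat libraries A, B, F and G and 4, 4, 5 and 6 counts in control libraries I, J, L and M, while Ttk had 2 to 11 counts in high fat libraries and 1 to 5 in control libraries.

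The chromosomal passenger complex corrects the attachment of chromosomes to the spindle. Its subunit Cdca8 (borealin) rose by a log2 fold change of 1.09 ± 0.26 (adjusted p = 0.0241, edgeR), with 1.17, 1.03, 1.36 and 1.10 CPM in high fat libraries and 0.782, 0.233, 0.529 and 0.505 CPM in control libraries. It was not called without high fat A, high fat F, control L or control M, with an adjusted p of up to 0.0721. Birc5 (survivin) stood just outside the threshold, with a log2 fold change of 0.83 ± 0.24 (adjusted p = 0.0503, edgeR), and passed it when high fat A or control M was left out. The kinase subunit Aurkb had a log2 fold change of 1.32 ± 0.45 (adjusted p = 0.0846, edgeR) on 8 to 25 counts in high fat libraries and 3 to 13 in control libraries, which overlapped through control M, and it passed without that library.

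Of the spindle genes, Nusap1, which bundles microtubules near chromatin, had the smallest p-value of the 41 genes. Its level was 5.63, 6.34, 6.28 and 6.42 CPM in high fat libraries A, B, F and G, against 3.71, 3.5, 3.10 and 3.87 CPM in control libraries I, J, L and M. Both groups were narrow and far apart, and the log2 fold change was 0.79 ± 0.11 (adjusted p = 0.0024, edgeR). At 1.63 FPKM it also had the highest level of the mitosis genes. Its exons share at least 172 of 4059 bases with Oip5, a centromere gene on the opposite strand, which itself rose (log2 fold change 0.91 ± 0.22, adjusted p = 0.0278, edgeR). Aspm, which organises spindle poles, rose by 1.04 ± 0.23 on the log2 scale (adjusted p = 0.0193, edgeR) and was not called without control L (adjusted p = 0.0537, edgeR). Tpx2, the activator of Aurka, overlapped between the diets through high fat G (log2 fold change 0.55 ± 0.21, adjusted p = 0.119, edgeR).

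The fold change of Iqgap3, a scaffold protein found at the cleavage furrow and known to be made in proliferating cells, was the largest of the 39 tested. Its level was 1.22, 1.35, 2.09 and 1.75 CPM in high fat libraries A, B, F and G, against 0.508, 0.389, 0.600 and 0.600 CPM in control libraries I, J, L and M. The lowest high fat value was above the highest control value, on 27 to 51 counts in high fat libraries and 5 to 19 in control libraries. The log2 fold change was 1.56 ± 0.23 (SE, adjusted p = 0.0038, edgeR, n = 4 per diet).

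Among the other genes of cytokinesis, Anln (anillin, which scaffolds the contractile ring) had 1.90, 2.42, 2.999 and 2.80 CPM in high fat libraries and 1.29, 1.24, 1.38 and 1.36 CPM in control libraries, a log2 fold change of 0.93 ± 0.17 (adjusted p = 0.0085, edgeR). Prc1, which crosslinks the microtubules of the central spindle, rose by 0.74 ± 0.17 on the log2 scale (adjusted p = 0.0212, edgeR). Prc1 was not called when high fat F, high fat G or control I was left out, with an adjusted p of up to 0.0559. Ect2, the exchange factor that activates RhoA at the furrow, had the lowest log2 fold change of the tested mitosis genes, -0.00 ± 0.18 (adjusted p = 0.994, edgeR). Its level was 4.69, 4.01, 4.72 and 3.82 CPM in high fat libraries and 5.01, 3.58, 3.07 and 5.41 CPM in control libraries, and the control values lay on both sides of the high fat values.

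Counts of genes whose exons overlap a gene on the opposite strand are uncertain, since the counting is not stated to use strand. Shared bases, here and above, count only the partner exon that overlaps most, so the whole overlap can be larger. Besides the genes named above, this uncertainty holds for Prc1 (670 of 8225 exon bases shared with Rccd1), Ncapg (944 of 7066 with Lcorl), Ccne2 (474 of 3495 with Ints8), Cdca8 (203 of 5177 with 9930104L06Rik), Plk1 (156 of 2199 with Gm44985) and Cdc20 (53 of 1868 with Elovl1). None of these partners that were tested was called (edgeR): their log2 fold changes were 0.37 ± 0.13 for Rccd1, 0.15 ± 0.07 for Lcorl, -0.21 ± 0.06 for Ints8, -0.04 ± 0.11 for 9930104L06Rik and -0.09 ± 0.06 for Elovl1. The adjusted p-values of these 5 partners ran from 0.0600 for Ints8 to 0.837 for 9930104L06Rik (edgeR). Apart from overlaps, the expected counts of Ccnd1, Ccne2, Tyms, Ccna2 and Cenpf were whole numbers in no library. Those of Ncapg and Birc5 were whole in 12.5% and 25% of libraries, and those of every other member in at least 50%. Levels of these 7 genes therefore rest on estimated shares of reads.

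Across libraries the sum of the 28 mitosis genes was 69.1, 81.3, 96.9 and 75.8 CPM in high fat libraries A, B, F and G, against 49.3, 38.8, 43.2 and 53.4 CPM in control libraries I, J, L and M. The means were 80.8 ± 11.9 CPM on the high fat diet and 46.2 ± 6.46 CPM on the control diet (SD, n = 4 each), a ratio of 1.75. High fat F was the highest of the 8 libraries for 18 of the 28 genes, and control J was the lowest for 15, control L for 7 and control I for 5. Control M was the highest control library for 16 of them. For every 100 MCM counts, a library held 103, 106, 142 and 118 mitosis counts on the high fat diet, against 67.1, 59.0, 56.3 and 83.3 on the control diet. This ratio within a library, on which scaling has no bearing, did not overlap between the diets.

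The contrast between S phase and mitosis was also put on a relative scale, as the mean log2 level of the genes of G1 and S phase minus that of the mitosis genes, each gene relative to its own mean over the 8 libraries. The contrast was -0.20, -0.17, -0.63 and -0.31 in high fat libraries A, B, F and G, against 0.44, 0.29, 0.58 and 0.0049 in control libraries I, J, L and M. All 4 high fat values were below all 4 control values, with control M nearest to the high fat libraries; the centring of each gene sets where 0 lies. The difference between the diets was -0.66, and it was -0.79 when the cyclins D1, E1 and E2 were left out. In control J, where Ccne1 had 0 counts, the contrast went from 0.29 to 0.56 without these cyclins. Within the diets, the median correlation of log2 levels over the 8 libraries, each centred on its diet, was 0.36 between mitosis genes (378 pairs), 0.21 between genes of G1 and S phase (78 pairs), 0.38 between the MCM subunits among them (15 pairs) and -0.06 between genes of G1 and S phase and mitosis genes (364 pairs). These correlations are descriptions, since all pairs share the same 8 libraries.

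**Figure D5:**
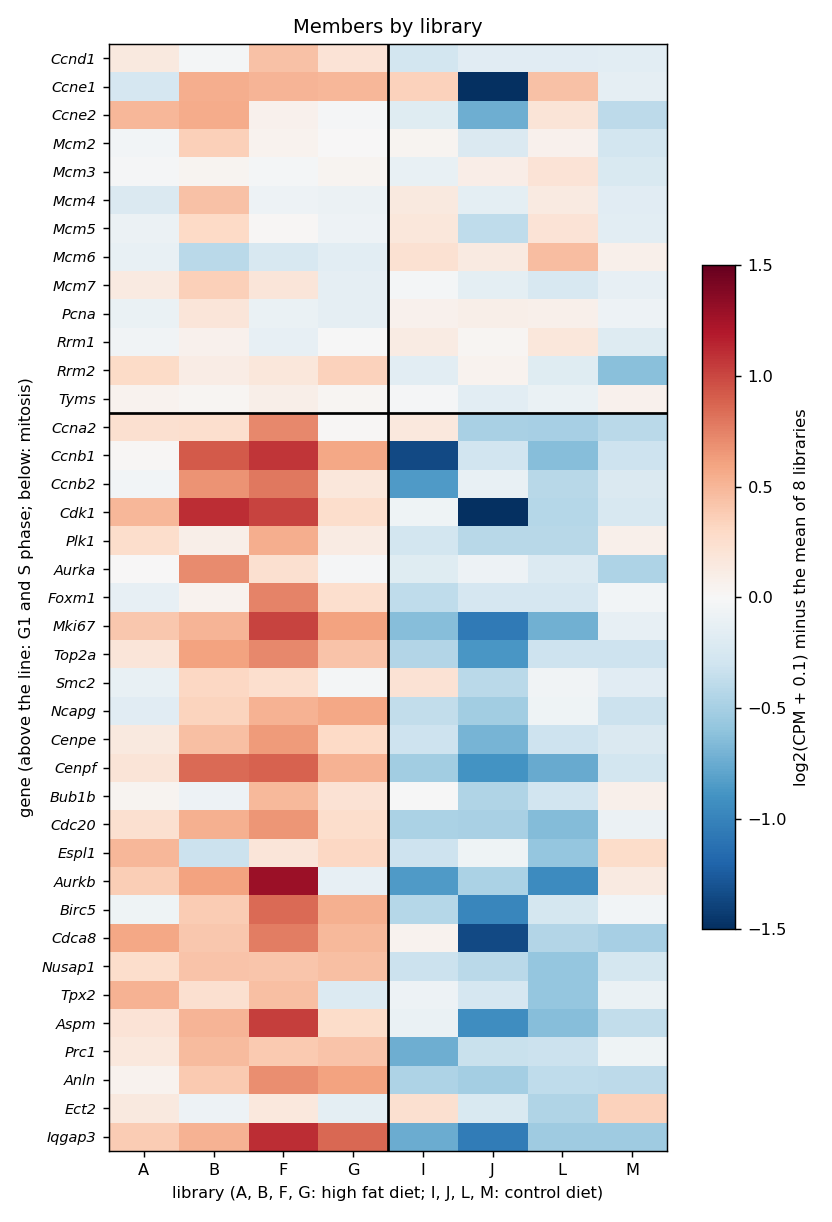
Log2(CPM + 0.1) of each of the 39 tested genes minus its mean over the 8 libraries (colour), with high fat libraries left of the vertical line and control libraries right of it, and genes of G1 and S phase above the horizontal line. Over all 28 mitosis genes, of which Bub1 and Ttk are not drawn, high fat F is the highest library for 18 and control J the lowest for 15. Of the 13 genes of G1 and S phase, 11 did not pass the test.

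Other genes of the same processes were read from lists of the same kind, chosen with earlier results of these data known. Measured in the same 8 libraries, they are not independent support for the result on the members. Outside the 41, 58 mitosis genes were listed, of which 47 passed the filter on low counts and were tested. Of these 47, 14 rose and Kpna2 fell, a called share of 31.9% against 9.99% of all tested genes. Their median log2 fold change was 0.62, against -0.00 for all genes. Sgol1 and Esco2, both among the 14, averaged 0.318 and 0.322 CPM on the control diet. On the high fat diet they averaged 0.673 and 0.778 CPM. Both passed the filter only through the high fat libraries, so the share and the median include genes selected by the diet where they are high. Kif20a, a kinesin of the central spindle, had the smallest p-value of those that rose, with 2.98 ± 0.212 CPM on the high fat diet and 1.32 ± 0.311 CPM on the control diet (SD, n = 4 each), a log2 fold change of 1.19 ± 0.17 (adjusted p = 0.0035, edgeR). Ncapg2 (condensin), Kntc1 (kinetochore) and Kif11 (the kinesin that separates spindle poles) rose by 0.64 ± 0.12, 1.23 ± 0.24 and 0.69 ± 0.15 on the log2 scale. Kpna2, an importin of nuclear transport, fell by 0.37 on the log2 scale (SE 0.06, adjusted p = 0.0057, edgeR). Kif20a, Ncapg2, Kntc1 and Kpna2 stayed called whichever library was left out, and Kif11 was lost without high fat F or control I. The count of 14 was 4 to 9 when any 1 library was left out, with the fewest without high fat F (4) and without control J (5), when 4.99% and 5.40% of all genes were called.

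Of 48 tested replication genes outside the 41 (origin recognition, polymerases, clamp loaders and nucleotide enzymes), Chaf1a rose, Prim1 fell and 46 did not pass. The called share was 4.17%, against 9.99% of all tested genes, and the median log2 fold change was 0.05. Chaf1a, a chaperone that places histones on new DNA, had a log2 fold change of 0.76 ± 0.18 (adjusted p = 0.0257, edgeR). Prim1, the catalytic subunit of primase, had 3.57 ± 0.456 CPM on the high fat diet and 4.88 ± 0.293 CPM on the control diet (SD, n = 4 each), a log2 fold change of -0.45 ± 0.12 (adjusted p = 0.0385, edgeR). Neither replication gene was called when high fat F, high fat G, control I or control J was left out, Prim1 was also lost without control L or control M, and Chaf1a without high fat B.

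Of 25 tested regulators of the cycle, 3 rose and Lin52 fell, a called share of 16% against 9.99% of all tested genes. E2f1, a transcription factor of S phase entry, had 3.57, 3.31, 3.90 and 3.05 CPM in high fat libraries and 1.25, 2.65, 1.27 and 2.04 CPM in control libraries, a log2 fold change of 1.00 ± 0.21 (adjusted p = 0.0169, edgeR). Its dimer partner gene Tfdp2 and the G1 kinase Cdk6 rose by 0.31 ± 0.06 and 0.38 ± 0.09 on the log2 scale. Lin52, a subunit of the MuvB core that binds CHR elements, had a log2 fold change of -0.28 ± 0.07 (adjusted p = 0.0378, edgeR). Of 5 tested inhibitors of cyclin-dependent kinases, Cdkn2c rose (0.62 ± 0.13, adjusted p = 0.0157, edgeR) and Cdkn1c fell (-0.32 ± 0.09, adjusted p = 0.0489, edgeR), both on the log2 scale. Of 12 p53 target genes, Trp53inp1 and Sesn2 rose by 0.44 ± 0.08 and 0.65 ± 0.14 on the log2 scale, and 10 did not pass. Called genes made up 40% of the 5 inhibitors and 16.7% of the p53 target genes. E2f1, Tfdp2, Cdkn2c, Trp53inp1 and Sesn2 stayed called whichever library was left out. Lin52 and Cdk6 stayed called in 2 of the 8 cases and Cdkn1c in 1, each lost without high fat F, high fat G, control I or control J, among others.

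Markers of other cell types were read beside these results. None of 8 macrophage, 4 tested lymphocyte or 8 endothelial markers was called (edgeR), and 1 macrophage marker, 0 lymphocyte and 0 endothelial markers had an unadjusted p under 0.05. Macrophage markers summed to 112 to 151 CPM in high fat libraries and 103 to 140 CPM in control libraries. The 9 lymphocyte markers summed to 4.20 to 4.72 CPM in high fat libraries and 3.60 to 4.10 CPM in control libraries, which did not overlap. Endothelial markers summed to 539 to 571 CPM in high fat libraries and 535 to 566 CPM in control libraries. None of 5 tested red cell markers was called, and 1 had an unadjusted p under 0.05, with higher values on the high fat diet. Their sum reached 1434 CPM in high fat G and 498 CPM in control J, against 261 to 433 CPM in the other high fat libraries and 263 to 267 CPM in the other control libraries. Of 8 proximal tubule markers Slc34a1 rose, Cubn and Aqp1 fell and 5 did not pass. Of 5 thick ascending limb markers 4 fell, with sums of 2845 to 3586 CPM in high fat libraries and 3566 to 4227 CPM in control libraries. Called markers made up 37.5% of the proximal tubule list and 80% of the thick limb list, against 9.99% of all tested genes. None of 7 tested markers of injured tubule passed, and 1 in each direction had an unadjusted p under 0.05. Their sum, mostly Spp1 and Clu, ran from 602 to 735 CPM in high fat libraries and from 683 to 825 CPM in control libraries. The log2 fold changes of 5 tested markers were above 0 and those of 2 below. The defining markers Havcr1 and Lcn2 were at or below 2.63 CPM in every library. Lcn2 was higher in every high fat library than in any control library (log2 fold change 0.94 ± 0.30, adjusted p = 0.0693, edgeR). Of 6 fat markers only Fabp4, which endothelium also expresses, was tested, and it was not called (edgeR). Fabp4 had 36.9 to 41.2 CPM in high fat libraries and 31.01 to 38.7 CPM in control libraries, with an unadjusted p under 0.05. The 6 fat markers summed to 37.9 to 41.7 CPM in high fat libraries and 31.7 to 39.1 CPM in control libraries, and the defining markers Adipoq and Lep were at or near 0. The part of these cell types in the mitosis result was not tested.

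The genes outside the cell cycle lists whose levels most resembled the mean of 27 mitosis genes within the diets were Hps1 (r = 0.990), Npm3 (0.968), Mogs (0.968), Mmp13 (0.961) and Letm1 (0.958). These are the highest Pearson correlations among 13303 genes over 8 libraries and are given as a description. Npm3 and Mogs were lower on the high fat diet, and the other 3 were not called.

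The authors' deposited tables of genes that differ between the diets hold several of the same genes. The authors' deposited table by symbol lists 11 of the 41 genes among 1133, 10 mitosis genes as higher and Mcm6 as lower. The authors' deposited table by Ensembl gene lists 14 among 1175, 13 mitosis genes as higher and Mcm6 as lower, and 10 genes stand in both. In the authors' deposited table by symbol the fold of high fat over control was 3.01 for Iqgap3, 2.63 for Cdk1, 2.62 for Ccnb1, 2.40 for Mki67 and 0.729 for Mcm6.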

How the data were processed

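RNA of the renal cortex was sequenced in 8 libraries, 4 per diet, prepared with a TruSeq kit with Ribo-Zero Gold, per the labels' protocols. CASAVA 1.8.2, RSEM 1.2.9 and the mm10 build are named in the submitters' processing notes. The authors deposited expected counts (estimated, not always whole) and FPKM values per gene symbol. The authors also deposited lists of differing genes giving for each gene a ratio (fold, high fat over control) and, as a score, a posterior probability. The tool behind those lists, the strand setting and the annotation are not given in the sources used here.

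Expected counts were rounded, Rn45s was removed before library sizes, and edgeR 4.0.16 in R 4.3.3 was run on all genes (TMM, filterByExpr, quasi-likelihood F test, diet as the only term). Calls needed an adjusted p (Benjamini-Hochberg over 14711 genes) under 0.05. The SE of a log2 fold change is its size over the square root of F. The relative contrast used log2(CPM + 0.05). Without Rn45s, counts ran from 13993652 in control J to 30403685 in control M, so levels under 1 CPM rest on few counts.

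Members and lists were chosen with earlier results of these data known. From the other gene lists, called genes that fell are named, and of those that rose at most 4 with the smallest p. Sgol1 and Esco2 are named besides for how they passed the filter. Called thick ascending limb markers are counted but not named. The genes most like the mitosis genes are the 5 with the highest correlation within the diets. Alternatives were keeping Rn45s, DESeq2 size factors, DESeq2 1.42.0, limma-voom and limma 3.58.1 on log2 FPKM, other filters and thresholds, a robust fit, and leaving out libraries. Rescaled FPKM values, leaving out control J with high fat F, and following other mitosis genes under every alternative were chosen after seeing the data. The test was also run on counts simulated from its own fit to these data, so that run cannot show whether the fitted spread is right.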

Additional observations from a re-analysis of the deposited data

Results flagged for a closer look

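Each value below is 1 library whose gap to the nearest of the other 3 of its diet took a larger part of the range of the 4 than Dixon's critical value allows. Of 122 groups checked, 12 were past this limit, and chance gives about 1 in 20.

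Among the members on the high fat diet, Ccne1 was low in high fat A (0.226 CPM, on 5 counts), Pcna was high in high fat B (37.3 CPM) and Nusap1 was low in high fat A (5.63 CPM), a value still above every control library. The share of Mcm7 in MCM counts was low in high fat G (24.3%). On the control diet, Pcna was low in control M (31.3 CPM) and Ccna2 was high in control I (3.01 CPM), the library through which Ccna2 overlapped between the diets. The number of Mki67 counts for every 100 Mcm2 counts was high in control M (72.7), beside 72.6 to 127 in high fat libraries and 35.7 to 40.4 in the other control libraries.

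Outside the members, red cell markers summed to 1434 CPM in high fat G and 498 CPM in control J, endothelial markers to 571 CPM in high fat G and 566 CPM in control J, and Rn45s took 50.3% of counts in control J. Leaving out control J and high fat G together left 6 mitosis genes called, of 14 with all libraries, while the share of all genes called was 2.83%, against 9.99% with all libraries.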

How the results depend on the processing

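The 16 called genes kept their direction in all 350 values under the alternatives and their call in 267, and in 109 of 128 values with 1 library left out. The 350 and the 267 both include the 16 values at an adjusted p under 0.10. These come from the same fit and could not change. With 1 library left out, 11 to 16 of the genes were called higher and 1 lower, 1 to 3 genes of G1 and S phase and 10 to 15 mitosis genes were called, 4 to 9 other mitosis genes rose, and 0 to 2 other replication genes were called. In the same fits 4.99% to 10.3% of all genes were called, against 9.99% with all libraries.

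When control J and high fat G were both left out, the counts were 6 higher, 0 lower, 0 of G1 and S phase, 6 of mitosis, 3 other mitosis and 0 other replication genes, and without control J and high fat F they were 5, 0, 0, 5, 2 and 0 in the same order; fewer libraries were then tested, and 2.83% and 2.80% of all genes were called. On deposited FPKM values, whose median over all genes shifts by 0.08 to 0.15, the same counts were 3, 0, 0, 3, 2 and 0 with log2(FPKM + 0.1), 3, 0, 0, 3, 1 and 0 with 0.01, and 8, 0, 0, 8, 5 and 0 with 1. There, 0.811% to 1.12% of all genes were called, and rescaling the FPKM values gave 10 higher, 0 lower, 0 of G1 and S phase, 3 other mitosis and 1 other replication gene, with 4.77% of all genes called. An adjusted p under 0.10 gave 24 other mitosis and 4 other replication genes, with 17.3% of all genes called, and a mean of at least 1 CPM gave 8 other mitosis genes, with fewer genes tested and 10.9% called.

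The median log2 fold change of G1 and S phase genes was 0.25 and 0.26 with log2(FPKM + 0.1) and log2(FPKM + 0.01), and that of mitosis genes 1.02 with 0.01 and 0.23 with 1, where the contrast between the groups was -0.11. In the fits with 0.1 and 0.01 the median over all genes was 0.14 and 0.15. No mitosis gene averaged above 1.63 FPKM over the libraries other than control J. For these differences the cause was not tested.

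Reversals touched uncalled genes near 0. Ect2 was at 0.0023 (DESeq2 size factors), 0.0074 (DESeq2), 0.016 (limma-voom), 0.165, 0.197 and 0.0586 (FPKM with 0.1, 0.01 and 1), 0.0013 (mean of at least 1 CPM) and 0.052 (rescaled FPKM). Pcna was at 0.0759, 0.0765 and 0.0702 and Rrm1 at 0.0854, 0.0903 and 0.0535 on FPKM with 0.1, 0.01 and 1. Mcm5 was at -0.0274 without control J and high fat F. With 1 library left out, Ect2 ran from -0.15 to 0.14, Mcm3 from -0.0617 to 0.11, Mcm4 from -0.13 to 0.11 and Mcm5 from -0.0501 to 0.13.

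No paired analysis was possible because the library letters differ between the diets. Depth limits the genes under 1 CPM most, above all in control J, where the mitosis genes had 498 counts. DESeq2 called 17 of the genes higher and 1 lower, and 12.7% of all genes.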

Other observations

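Mki67 made up 17.5%, 15.9%, 19.0% and 18.3% of the counts of the 28 mitosis genes in high fat libraries A, B, F and G, against 11.7%, 11.0%, 12.7% and 15.6% in control libraries I, J, L and M, and the diets did not overlap. This share was looked at after the values of Mki67 were seen and was not tested.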
